A study of Mus musculus with 5 samples.

Results

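The 10 genes described here are used as markers of astrocytes and of glial stem cells: Gfap, Vim, Nes, S100b, Gja1, F3, Clu, Aldh1l1, Atp1b2 and Aqp4. They were chosen by symbol, all 10 were found among the 29495 genes of the count tables, and all 10 passed the filter on low counts that left 15919 genes to test. The cells were mouse glioma cells of the genotype p53-/-;NF1-/-;tdTomato+/-, which came from tumors of mice with CD-1 and C57BL/6 ancestry. They were grown on neurons from the olfactory bulbs of C57BL/6 pups and recovered by sorting on tdTomato. Both groups carry these alleles and both were co-cultured. The control group (replicates 1 and 2) is given no treatment in its labels, and the IGF-1 group (replicates 3, 4 and 5) was kept overnight with 20 ng/mL of insulin-like growth factor 1. The labels do not name the driver of the gene deletions. The titles of all 5 libraries share an identifier, but the labels do not say whether the libraries came from 1 cell line or from separate cultures. The p-values therefore rest on a spread from library to library that could be purely technical. The culture media, per the labels' protocols, held serum, and the plating medium of the neurons held insulin.

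Astrocytes are the brain's supporting glia. They carry a cytoskeleton of intermediate filaments, buffer ions and water at their endfeet on blood vessels, and are joined to each other by gap junctions. Neural stem cells and many glial progenitors share part of this set, above all vimentin and nestin. The water channel, the connexin and the folate enzyme of the list are used as markers of mature astrocytes. S100b and vimentin are also made by cells of the oligodendrocyte lineage, so no single one of these genes defines an astrocyte.

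Libraries held 16944315 to 20144181 counts, and genes of the mitochondrial genome took 2.78% to 3.22% of them. IGF-1 replicate 5 stands apart from the other libraries. Its median log2 difference from the mean of replicates 3 and 4 was -0.12 over the 1762 tested genes with transcripts under 1000 bases and 0.06 over the 4552 with transcripts over 4000 bases. Changes of the 10 markers are therefore given with and without it, and those of other genes only in part. Of all genes tested 28.1% were highest and 29.3% lowest in replicate 5 among the 5 libraries, and of the 10 markers 3 were highest (Vim, S100b and Clu) and 4 lowest (Gfap, F3, Aldh1l1 and Aqp4). Markers of most other cell types were low in every library, and the part of their sums in the results was not tested. Summed over their lists, the 9 microglial genes lay between 3.81 and 4.90 CPM, the 7 endothelial genes between 6.36 and 10.1 CPM, the 8 mural genes between 2.40 and 4.13 CPM and the 7 ependymal genes between 3.23 and 6.07 CPM. The 13 neuronal genes summed to 60.9 and 59.3 CPM in the controls and to 68.1, 69.5 and 77.1 CPM with IGF-1, mostly through the tubulin gene Tubb3, while the neuronal nuclear gene Rbfox3 had 0 to 1 counts per library. The 8 fibroblast genes summed to 570 to 688 CPM, of which Pdgfra, shared with glial progenitors, made 510 to 629 CPM, while Dpt had 0 to 1 counts. In the list for olfactory ensheathing cells, the level came from Sox10 and Fabp7, which glial progenitors also make, and Npy had 0 to 1 counts. The listed markers Cx3cr1 (microglia), Cldn5 (endothelial) and Th (neuron) were not among the genes counted. Every marker that was found had a count in at least 1 library, as had all 29495 genes counted.

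The 10 markers did not behave as 1 set in level. CPM are each gene's counts scaled to a common library size, and for comparison between genes they were divided by transcript length. Per kilobase, Vim was the highest at 1245 CPM, 99.9% of genes tested lying below it. Nes (86.5), Atp1b2 (68.4), F3 (56.6) and S100b (42.0 CPM per kilobase) followed, above 87.8% or more of genes tested. Clu was near the middle at 11.2 CPM per kilobase, with 58.8% of genes below it. Gfap lay lower, at 3.20 CPM per kilobase, with 34.6% below it. Gja1 at 0.864, Aldh1l1 at 0.224 and Aqp4 at 0.119 CPM per kilobase were near the bottom, with 17.2%, 3.48% and 0.818% of genes tested below them. Ranges over the 5 libraries did not overlap between neighbours in this order, with 2 exceptions: F3 (46.4 to 68.8) overlapped Atp1b2 (65.3 to 71.7), and Aqp4 (0.0678 to 0.230) overlapped Aldh1l1 (0.0938 to 0.368 CPM per kilobase).

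The levels of astrocyte markers were split. Gja1, Aldh1l1 and Aqp4, all used as markers of mature astrocytes, were the lowest of the 10 and Gfap came next. Among 28 other astrocyte genes the median was 9.31 CPM per kilobase and 18 were above Gfap. They ran from 0.0111 for the transporter gene Slco1c1 to 259 for Cpe, with Sparcl1, a secreted matrix protein, at 87.7, Glul, glutamine synthetase, at 84.2, the glutamate transporter gene Slc1a3 at 28.2 and the transcription factor gene Sox9 at 0.371. Among 13 genes of oligodendrocyte progenitors the median was 71.0 CPM per kilobase and 12 were above Gfap, with a range from 0.124 for Neu4, a sialidase gene, to 324 for Olig1. The transcription factor genes Sox10 and Olig2 stood at 304 and 106 CPM per kilobase, the growth factor receptor gene Pdgfra at 79.6, and the proteoglycan gene Cspg4 (NG2) at 71.0 CPM per kilobase. Lower members were Gpr17 at 24.8, Pcdh15 at 16.5, Nkx2-2 at 12.5 and C1ql1 at 8.12 CPM per kilobase. The 10 genes are called markers below without the claim that astrocytes were present. In RNA from sorted cells in bulk, fewer cells of a type and less RNA per cell cannot be told apart.

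**Figure D1:**
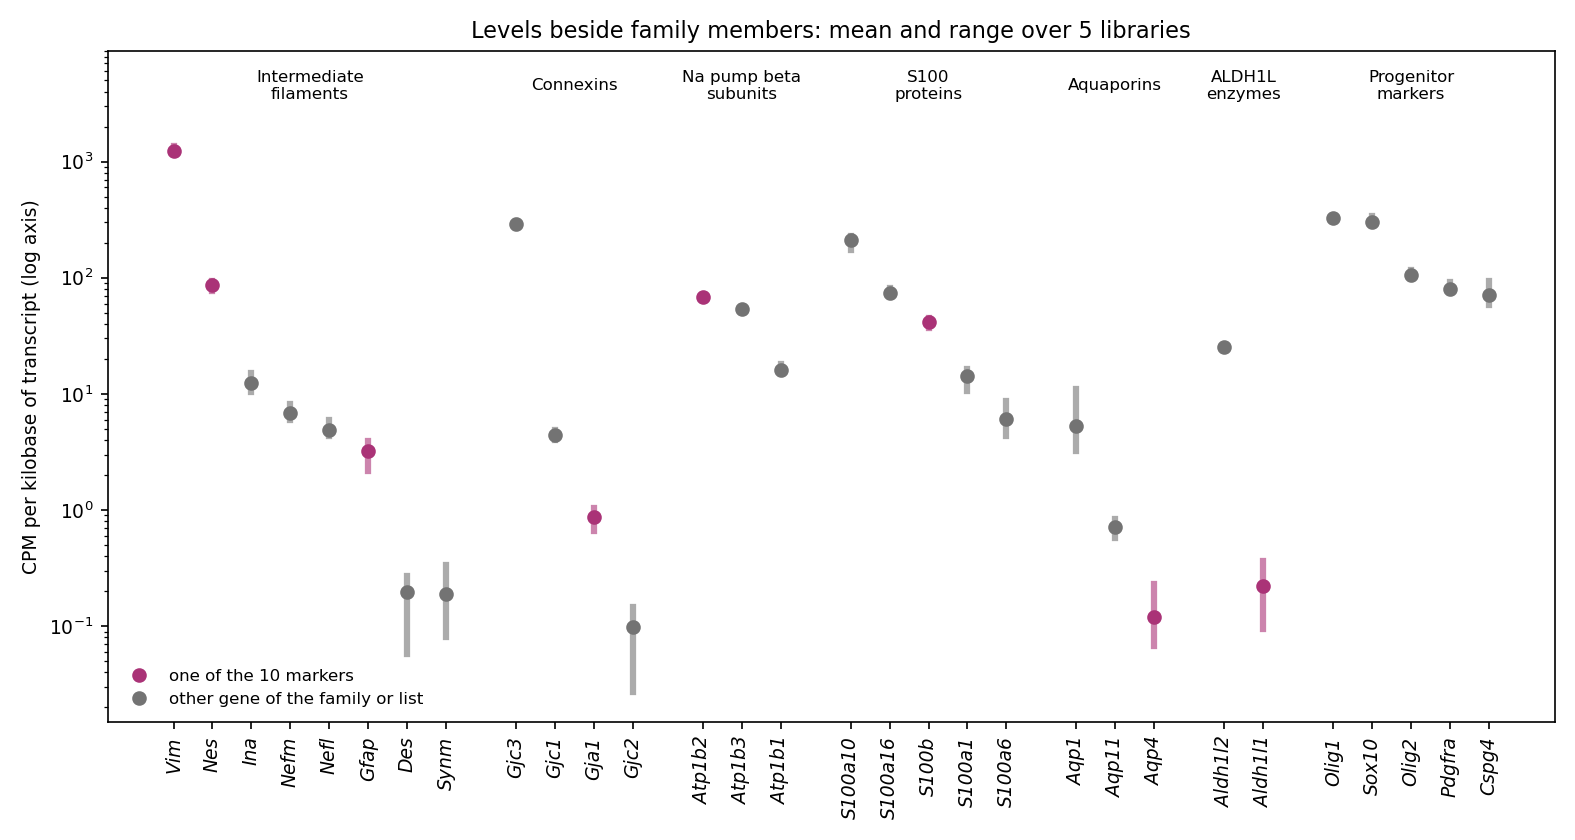
Levels of the markers (purple) beside other genes of their families and beside oligodendrocyte progenitor markers (grey), in CPM per kilobase of transcript on a log axis. Points are means over the 5 libraries and bars run from the lowest to the highest library. Vim is the highest at 1245, and Gja1, Aldh1l1 and Aqp4 lie far below the leading gene of their families.

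With IGF-1, 1 of the 10 markers passed the test, F3, the gene of tissue factor, and it fell. Of 15919 genes tested 1.02% were called in either direction and 0.339% were lower, by edgeR's quasi-likelihood test at a Benjamini-Hochberg adjusted p under 0.05 over all genes. Of the 10 markers 0 were higher and 1 was lower, and by unadjusted p under 0.05 1 was higher (Nes) and 1 lower (F3), where 12.7% of all genes passed, 7.1% higher and 5.57% lower. DESeq2, which called 1.76% of genes, 1.2% higher and 0.559% lower, called both Nes and F3. The CPM of the groups did not overlap for the same 2 genes, where 33.1% of all genes tested did not overlap, 16.2% higher and 16.9% lower. The median log2 change of the 10 was 0.05, with 5 above and 5 below 0, and that of all genes tested was -0.0076. Without IGF-1 replicate 5, Nes and F3 were called, 1 higher and 1 lower, in a comparison that called 9.14% of 15573 genes, and the median of the 10 was 0.02. The relative spread within groups that edgeR estimated over all genes was 0.077 with all libraries and 0.032 without replicate 5. The adjusted p-values without replicate 5 rest on that smaller spread. With 10 genes, counts of 1 or 2 are too small to set the markers apart from all genes, and nothing is read from them about the set. For the gene lists below, counts at an unadjusted p under 0.05 stand against the same 7.1% higher and 5.57% lower of all genes.

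**Figure D2:**
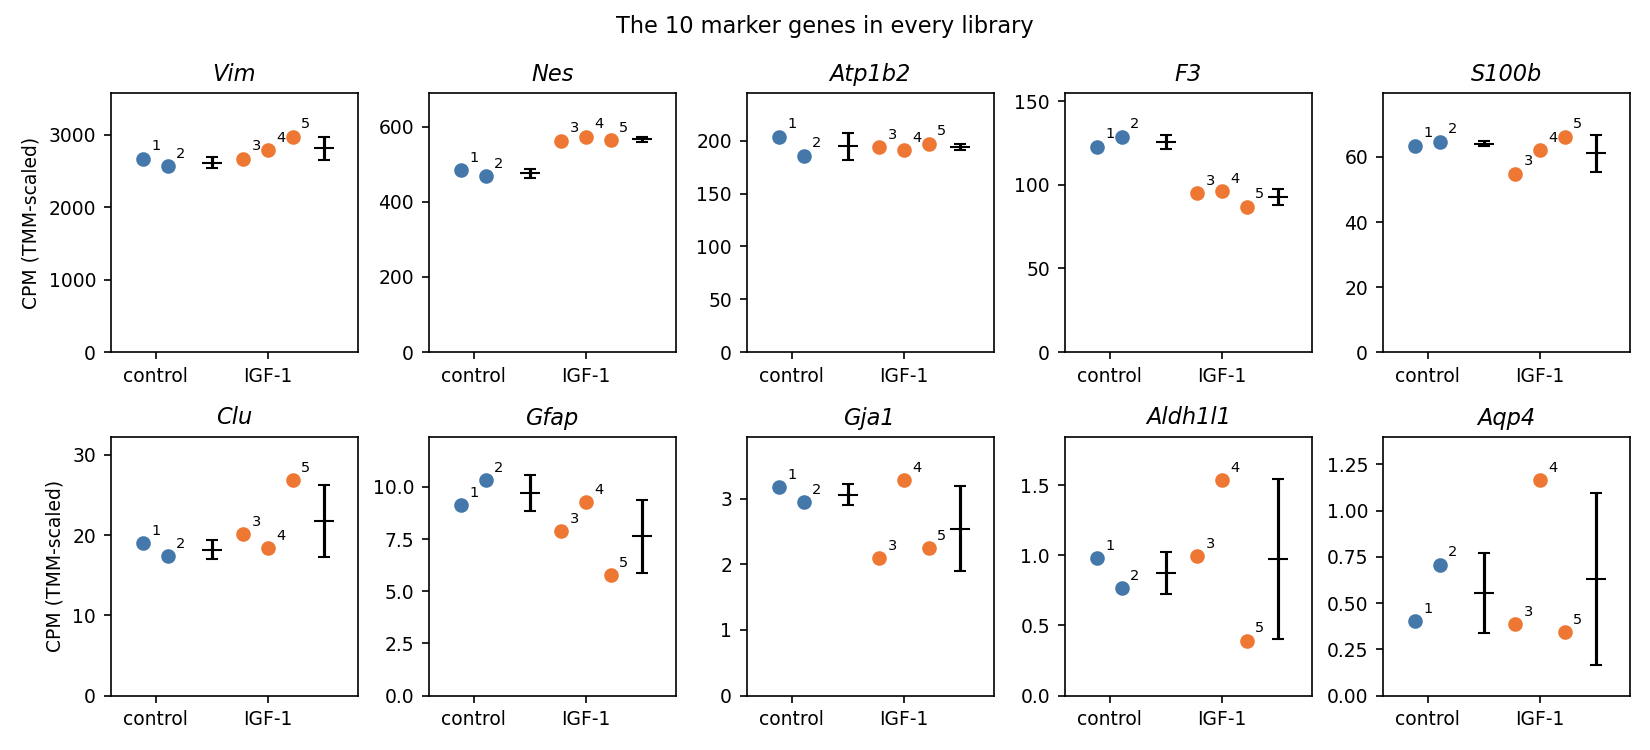
CPM of each marker in every library, with replicate numbers beside the points. Controls are blue and IGF-1 libraries orange. The black bar beside each group is its mean and SD (n = 2 and n = 3). The groups are apart for F3 and Nes and overlap for the other 8 genes. Each panel starts at 0 and has its own scale.

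F3 encodes tissue factor, the cell-surface receptor for coagulation factor VII that starts blood clotting and that astrocytes carry in the brain. It was at 123 and 129 CPM in control replicates 1 and 2, and at 95.1, 96.1 and 86.9 CPM in IGF-1 replicates 3, 4 and 5. Every IGF-1 library was below both controls, and the SD within groups was 4.18 and 5.05 CPM. Its mean went from 126 ± 4.18 (SD, n = 2) to 92.7 ± 5.05 CPM (SD, n = 3), to 0.737 of the control level. It fell by 0.44 on the log2 scale (SE 0.07, 95% interval -0.59 to -0.29, edgeR adjusted p = 0.0184). Without replicate 5 the change was -0.40 (adjusted p = 2.93e-09). The call was lost when any 1 of the other libraries was left out: without control replicate 1 or 2 the adjusted p was 0.333 or 0.423, and without IGF-1 replicate 3 or 4 it was 0.0792 or 0.0588, with log2 changes between -0.41 and -0.47. Against Atp1b2, whose range per kilobase it overlapped over all libraries, F3 overlapped it in the controls (65.6 and 68.8 against 71.7 and 65.3 CPM per kilobase) and lower with IGF-1 (46.4 to 51.4 against 67.2 to 69.4).

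The sequence before the start of F3 is shown because F3 was the marker that passed the test. Promoter windows of 7 of the 10 markers were found by symbol in a table from RefSeq on build GRCm38.p6, and those of Clu, Atp1b2 and Aqp4 were not. These are the 250 bases before the annotated gene start of F3, on the forward strand at chr3:121723287-121723536 (GRCm38.p6), 5′ to 3′, with matches to the motifs below in capitals:
F3: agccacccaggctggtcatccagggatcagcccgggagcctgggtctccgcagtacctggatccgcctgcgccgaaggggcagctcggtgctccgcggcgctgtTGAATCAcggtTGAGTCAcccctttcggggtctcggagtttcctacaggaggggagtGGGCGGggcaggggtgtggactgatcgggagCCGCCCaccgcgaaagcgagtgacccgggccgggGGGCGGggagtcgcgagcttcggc
The window holds TGAGTCA, the binding motif of AP-1 factors, starting 135 bases before the gene start, and the related TGAATCA starting 146 bases before it, both on the forward strand. It holds GGGCGG, the SP1 box, 3 times: 89 and 24 bases before the start on the forward strand and 58 bases before it on the reverse strand, where it reads CCGCCC. The capitals of the AP-1 and SP1 matches do not overlap. The EGR motif GCGNGGGCG was also searched and its letters are not in this window. Both strands were searched in windows of the same length before 32817 gene starts, of which 4.46% held TGAGTCA, 2.43% TGAATCA, 32.7% GGGCGG and 4.70% GCGNGGGCG. Among the other 6 windows, Gja1 held TGAGTCA and Nes and Aldh1l1 held GGGCGG. A match is a stretch of letters and was not measured as a bound site.

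Genes around tissue factor did not pass the test with it. Of 21 genes of the coagulation and fibrinolysis proteases, their receptors and inhibitors found in the tables, 8 were tested and 0 were called in either direction (1.02% of all genes were), with a median log2 change of 0.10, and 1 was higher at an unadjusted p under 0.05. The most abundant were Serpine2, the protease inhibitor nexin 1, at 518 ± 5.55 (SD, n = 2) and 575 ± 104 CPM (SD, n = 3), and Plat, tissue plasminogen activator, at 129 ± 6.66 and 134 ± 5.18 CPM. The large SD of Serpine2 came from replicate 5, at 695 CPM against 514 and 517 in replicates 3 and 4. Tfpi, the inhibitor of the tissue factor complex, was at 68.6 and 80.8 CPM in the controls and at 67.2, 64.7 and 68.2 CPM with IGF-1 (log2 -0.16, adjusted p = 0.44). Its IGF-1 libraries lay below both controls, but the controls differed from each other by more. Without replicate 5, 2 of the list were higher, in a fit where 5.49% of all genes were, among them Plaur, the urokinase receptor (0.88, edgeR adjusted p = 5.14e-04). With all 5 libraries Plaur was at 0.78 (adjusted p = 0.121).

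The genes whose levels over the 5 libraries were closest to F3, by the Euclidean distance of log2 CPM centred on each gene's mean, were Stard13 (0.06), Tbccd1 (0.07) and Arl4a (0.08), among 9514 genes of at least 10 CPM. Stard13 was at 240 CPM in both controls and at 179, 181 and 169 CPM with IGF-1. Arl4a was at 62.1 and 63.1 and at 44.9, 46.8 and 41.5 CPM. As for F3, replicate 5 was the lowest library for each of the 3. For Gfap the closest genes were Hspb11 (0.11), Uqcr10 (0.15) and Romo1 (0.18), of 9515 compared. All 3 were lowest in replicate 5, where Hspb11 was at 7.59 CPM against 11.2 to 13.8 in the other 4 libraries. With 5 libraries many genes lie close to any pattern, so the names are a description only.

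**Figure D3:**
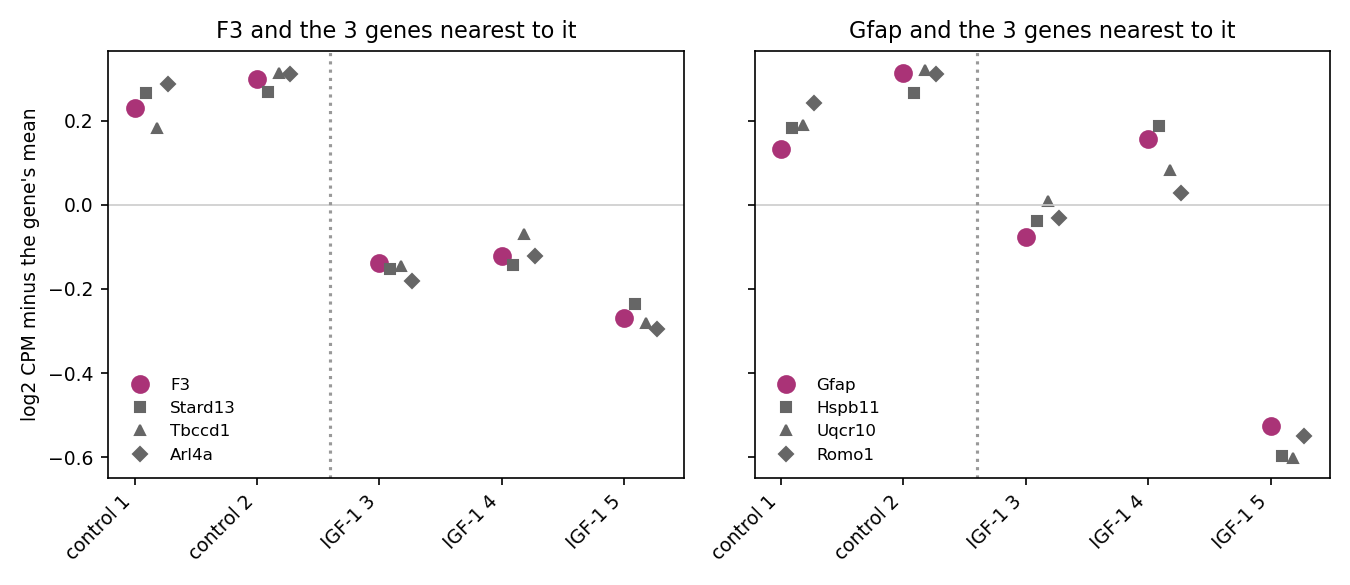
log2 CPM minus each gene's own mean in the 5 libraries, for F3 (left) and Gfap (right) in purple and the 3 genes nearest to each in grey. Dotted lines separate controls from IGF-1 libraries. The F3 panel shows a step between the groups, and the Gfap panel shows low values in IGF-1 replicate 5.

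Vim, Nes and Gfap encode proteins of the intermediate filaments, vimentin, nestin and the glial fibrillary acidic protein. Nes, which marks neural stem and progenitor cells, was at 485 and 467 CPM in the controls and at 562, 573 and 564 CPM in IGF-1 replicates 3, 4 and 5. All IGF-1 libraries were above both controls, and the SD was 12.2 and 6.10 CPM within the groups. The log2 change of 0.25 (SE 0.06, 95% interval 0.12 to 0.38) did not pass edgeR's test with all libraries (adjusted p = 0.093). It passed by DESeq2 (0.25, adjusted p = 0.0347), with no filter on low counts (adjusted p = 0.00957) and without replicate 5 (0.25, adjusted p = 3.48e-08), and it did not pass by voom (adjusted p = 0.0845) or without any 1 of the other libraries (adjusted p from 0.251 to 0.864). The size of the change was alike in these fits, between 0.23 and 0.28.

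Vim, the filament gene of mesenchymal and immature glial cells, was at 2669 and 2560 CPM in the controls and at 2669, 2785 and 2971 CPM with IGF-1. Replicate 3 lay beside control replicate 1, so the groups overlapped, and the log2 change of 0.10 (95% interval -0.05 to 0.25) did not pass (adjusted p = 0.566). Without replicate 5 the change was 0.06 (edgeR adjusted p = 0.212). Vim alone made up 74.0% to 75.8% of the summed CPM of the 10 markers in each library. Per 1000 reads of Vim there were 182 and 183 reads of Nes in the controls against 211, 206 and 190 with IGF-1, and 46.0 and 50.3 reads of F3 in the controls against 35.6, 34.5 and 29.2. For Gfap the same ratio was 3.42 and 4.03 in the controls against 2.95, 3.33 and 1.94 with IGF-1. The groups are apart for each of these ratios, although the CPM of Gfap overlap. How many of all genes are apart by this ratio was not tested, and by CPM 33.1% were.

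Gfap, the filament of mature and reactive astrocytes, had 158 and 175 counts in the controls against 143, 175 and 118 with IGF-1. In CPM these were 9.12 and 10.3, and 7.88, 9.26 and 5.77. Replicate 4 lay between the controls and replicate 5 was the lowest. The log2 change of -0.35 (SE 0.19, 95% interval -0.78 to 0.08) did not pass (adjusted p = 0.487), and it was -0.18 without replicate 5 (adjusted p = 0.534). As the interval spans 0, a direction was not detectable in these libraries.

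The other filament, lamin and linker genes gave no call with all libraries. Of the 14 counted genes of this kind, 12 were tested and 0 were called, with 1 higher at an unadjusted p under 0.05 and a median log2 change of 0.14. Plec, the gene of the linker plectin that ties filaments to other cell structures, was at 535 and 520 CPM in the controls and at 583, 620 and 643 CPM with IGF-1 (0.22, adjusted p = 0.186), with no overlap between the groups. Dst, another linker of the same family, was at 0.16 (adjusted p = 0.456). Without replicate 5, 3 of the list were higher: Plec (0.19, adjusted p = 4.51e-05), the neurofilament gene Nefm (0.38, adjusted p = 0.00402) and Lmna, the gene of the nuclear lamins A and C (0.18, adjusted p = 0.00343). In that fit 5.49% of all genes were higher. With all libraries Lmna was at 0.05 (adjusted p = 0.899): replicate 5, at 132 CPM, was below both controls (158 and 157), and replicates 3 and 4 (173 and 184) were above them. Nefm in replicate 5, at 19.9 CPM, was below both controls (20.4 and 20.3), and 25.5 and 27.5 CPM were read in replicates 3 and 4. Per kilobase, the neuronal-type filament genes Ina (12.4), Nefm (6.81) and Nefl (4.88 CPM) were above Gfap, while the muscle filament gene Des (0.196) was below it.

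Atp1b2 encodes the beta 2 subunit of the sodium pump, an adhesion molecule of glia and the target of the ACSA-2 antibody used to isolate astrocytes. It was at 204 and 186 CPM in the controls and at 194, 191 and 197 CPM with IGF-1. The IGF-1 libraries all lay between the 2 controls. Its log2 change was -0.0044 (95% interval -0.15 to 0.14, adjusted p = 0.986), so a change larger than about 0.15 in either direction lies outside the interval. Without replicate 5 the change was -0.017 (edgeR adjusted p = 0.893). In the RefSeq gene order Atp1b2 lies next to Trp53, the p53 gene whose loss the genotype names, and both groups carry that loss. Among other beta subunit genes of the pump, Atp1b3 and Atp1b1 stood at 53.6 and 15.9 CPM per kilobase, below Atp1b2. Of 14 tested genes of the pump and its regulators 0 were called, also at an unadjusted p under 0.05 (median 0.06), and 1 was lower without replicate 5, as were 3.65% of all genes. Atp1b3 was at 0.09 (adjusted p = 0.577).

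S100b encodes a calcium-binding protein of astrocytes and of maturing oligodendrocyte progenitors. It was at 63.5 and 64.7 CPM in the controls and at 54.9, 62.1 and 66.3 CPM with IGF-1. Replicates 3 and 5 lay on opposite sides of the controls, and the log2 change was -0.07 (95% interval -0.26 to 0.12, adjusted p = 0.777). Of the other S100 genes 10 were in the tables and 7 were tested, of which 0 were called and 0 had an unadjusted p under 0.05 (median -0.09). S100a10, which binds annexin A2, was the most abundant per kilobase at 211 CPM, and S100a16 was at 73.7 CPM, both above S100b. S100a10 fell short of the other libraries in replicate 5, at 118 CPM against 148 to 157, and was at -0.14 overall (adjusted p = 0.595).

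Clu encodes clusterin, a secreted chaperone and lipid carrier that astrocytes release. It was at 19.0 and 17.3 CPM in the controls and at 20.1, 18.4 and 26.9 CPM with IGF-1. Replicate 5 was 39.5% above the mean of replicates 3 and 4, which lay close to the controls. The log2 change was 0.26 with all libraries (95% interval -0.08 to 0.61, adjusted p = 0.524) and 0.08 without replicate 5 (adjusted p = 0.746). The most abundant gene of each of the lists of other astrocyte genes and of reactive astrocytes was also highest in replicate 5. Cpe, carboxypeptidase E, was at 806 CPM there against 479 to 487 in the other 4 libraries, and its log2 change went from 0.28 (adjusted p = 0.586) to -0.014 (adjusted p = 0.888) without that library. Serpina3n, a serine protease inhibitor, was at 1309 CPM against 745 to 825, and its change turned from 0.21 (adjusted p = 0.699) to -0.10 (adjusted p = 0.0369), a call of lower, without it. Replicate 5 did not stand on the same side for all secreted products: Apoe was at 20.7 CPM there against 23.9 and 26.3 in replicates 3 and 4.

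In the list of lipoprotein genes and clusterin receptors, 1 of 14 tested genes rose and 0 fell (median 0.13), and 4 were higher and 1 lower without replicate 5, against 5.49% and 3.65% of all genes. Apoe, the main lipid carrier of astrocytes, was at 0.20 (adjusted p = 0.521), or 0.29 without replicate 5 (adjusted p = 0.0469). Its level was 15.9 CPM per kilobase.

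The markers of mature astrocytes had few counts. Gja1, the gene of connexin 43, the main gap junction protein of astrocytes, had 55 and 50 counts in the controls against 38, 62 and 46 with IGF-1 (3.17, 2.95, 2.09, 3.28 and 2.25 CPM). The highest and the lowest values were both in the IGF-1 group, and the log2 change of -0.27 had a 95% interval of -0.86 to 0.32 (adjusted p = 0.711). Without replicate 5 the change was -0.18 (edgeR adjusted p = 0.781). Among connexins the level was instead carried by Gjc3, connexin 29, of oligodendrocytes and Schwann cells, at 289 CPM per kilobase against 0.864 for Gja1. Gjc3 was at 1223 and 1224 CPM in the controls and at 1112, 1082 and 1140 CPM with IGF-1, all below the controls, and did not pass (-0.14, adjusted p = 0.374), but passed without replicate 5 (-0.16, adjusted p = 1.32e-04). Of 5 connexin and pannexin genes tested 0 were called and 1 was lower unadjusted (median 0.16), and 12 of the 15 in the tables averaged under 1 CPM. Panx1, a channel of the related pannexin family, was at 0.24 (adjusted p = 0.456).

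Aldh1l1, the folate enzyme that marks astrocytes broadly, had 17 and 13 counts in the controls against 18, 29 and 8 with IGF-1. The exact Poisson 95% intervals, which cover counting error only, ran from 19.4 to 41.6 counts in replicate 4 and from 3.45 to 15.8 in replicate 5, so the 2 IGF-1 libraries differed from each other more than either differed from the controls. The log2 change of 0.14 had an interval of -1.04 to 1.32 (adjusted p = 0.935). Its mitochondrial relative Aldh1l2 was far more abundant, at 25.3 against 0.224 CPM per kilobase. In the GENCODE annotation, 499 exon bases of Aldh1l1 are shared with a gene on the opposite strand and 105 with a gene on the same strand. Neither gene was among the genes counted. No source used here states the strand setting of the counting, so reads of the opposite-strand gene cannot be told apart there. Reads of the same-strand gene cannot be told apart by strand in any setting. Of 18 tested genes of the folate one-carbon pathway 0 were called, with 1 higher and 1 lower unadjusted (median -0.02). Shmt2, the mitochondrial serine hydroxymethyltransferase, was at 246, 243, 242 and 255 CPM in replicates 1 to 4 and at 162 CPM in replicate 5. Atic, of purine synthesis, was at 0.04 (adjusted p = 0.828).

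Aqp4, the water channel of astrocyte endfeet, had 7 and 12 counts in the controls against 7, 22 and 7 with IGF-1. Its log2 change of 0.18 had an interval of -1.22 to 1.58 (adjusted p = 0.931), so a change of 2-fold either way lies inside it. Without replicate 5 the change was 0.49 (edgeR adjusted p = 0.706). Per kilobase Aqp4 was below Aqp1 (5.30) and Aqp11 (0.720 CPM). Aqp1 had 590 counts in replicate 5 and 154 to 203 in the other 4 libraries. Of 14 tested genes of the aquaporin family and of the endfoot anchoring complex 0 were called, with 0 higher and 1 lower unadjusted (median 0.03). The matrix protein gene Agrn was at 0.13 (adjusted p = 0.667) and Dag1, the gene of dystroglycan, which anchors the channel, at 0.15 (adjusted p = 0.536).

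**Figure D4:**
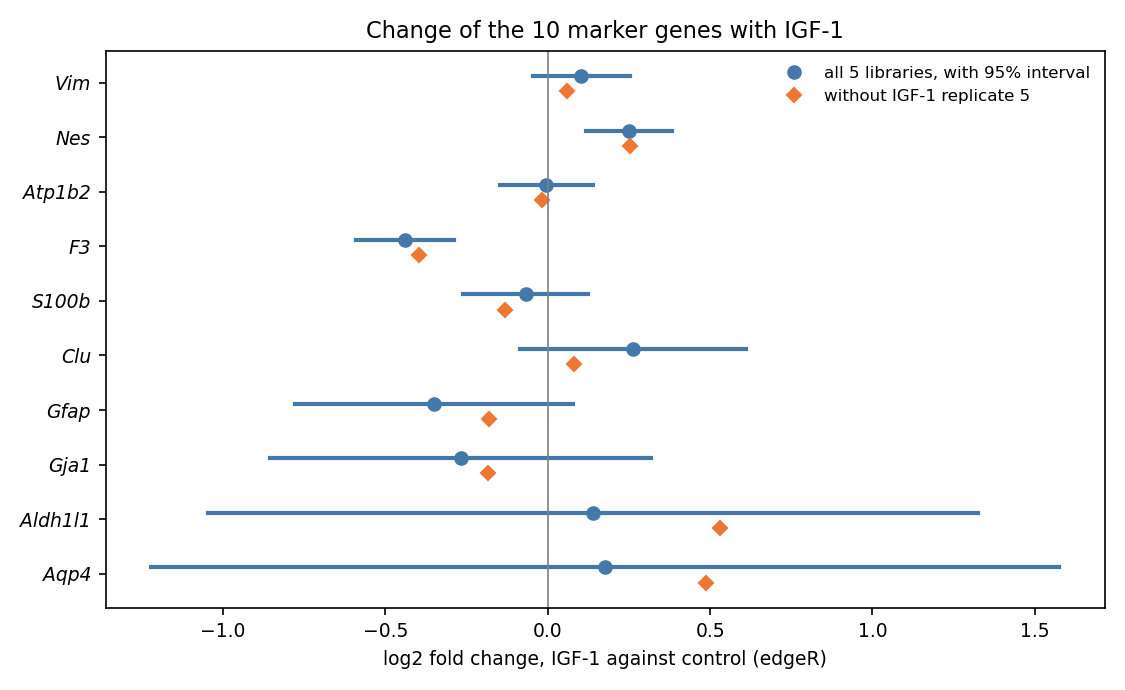
log2 fold change of each marker, IGF-1 against control. Blue points are the edgeR fit to all 5 libraries with 95% intervals, and orange diamonds are the fit without IGF-1 replicate 5. The intervals of F3 and Nes lie to one side of 0, and those of Aldh1l1 and Aqp4 are the widest. Without replicate 5, Clu and Gfap move toward 0, while Aldh1l1, Aqp4 and S100b move away from it.

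Other genes of astrocytes, of reactive astrocytes and of neural stem cells gave 1 call in all with all 5 libraries. Of 23 tested astrocyte genes outside the 10, 0 were called, and the median was 0.03. At an unadjusted p under 0.05, 1 was higher and 4 were lower, against 7.1% and 5.57% of all genes tested. The most abundant by CPM were Cpe and Mfge8, a secreted bridging protein for phagocytosis, at 0.07 (adjusted p = 0.803). Without replicate 5, where 5.49% of all genes were higher and 3.65% lower, 1 was higher (Apoe) and 3 were lower: Glul (-0.22, adjusted p = 4.97e-05), Nfix, a transcription factor of gliogenesis (-0.23, adjusted p = 2.59e-04), and Id3, an inhibitor of differentiation factors (-0.21, adjusted p = 0.00839). With all libraries they were at -0.23 (adjusted p = 0.132), -0.23 (adjusted p = 0.138) and -0.30 (adjusted p = 0.211). For each of the 3, every IGF-1 library was below both controls, as for 16.9% of all genes tested. The 3 were picked by their calls of lower without replicate 5, so the separation adds little to those calls. Glul was at 266 and 250 CPM and then at 218, 225 and 215 CPM.

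Of 28 tested genes of reactive astrocytes 0 were called, with 1 higher and 0 lower unadjusted (median -0.0085), and 2 were higher and 1 (Serpina3n) lower without replicate 5, where 5.49% and 3.65% of all genes were. Cd44, the hyaluronan receptor, was at 245 and 238 CPM in the controls and at 258, 256 and 268 CPM with IGF-1 (0.11, adjusted p = 0.482). Of 17 genes of the gp130 and STAT3 pathway, which drives Gfap in astrocytes, 0 were called by edgeR with or without replicate 5, by DESeq2, and at an unadjusted p under 0.05 (median 0.02). Stat3 itself was abundant at 80.5 CPM per kilobase and was at 0.06 (adjusted p = 0.724), and the phosphatase gene Ptpn11 was at 0.03 (adjusted p = 0.882).

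Among 19 tested genes of neural stem cells and radial glia 1 rose, Hes1, a repressor that Notch signalling induces, and 0 fell (median -0.03). Hes1 was at 12.1 and 10.1 CPM in the controls and at 16.03, 19.3 and 19.5 CPM with IGF-1. All 3 IGF-1 libraries were above both controls, and the log2 change was 0.72 (SE 0.14, edgeR adjusted p = 0.0442, and 2.77e-05 without replicate 5). The call was lost by voom (adjusted p = 0.0603), with total counts, just above the threshold, and without any 1 of the other 4 libraries (adjusted p from 0.0792 to 0.611). Over the 12 related lists together, 169 distinct genes outside the 10 were tested and 2 rose, Hes1 among them, and 0 fell, by edgeR and by DESeq2, where 0.685% of all genes tested were higher and 0.339% lower by edgeR. Without replicate 5, 13 of 165 were higher and 9 lower, where 5.49% and 3.65% of all genes were.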

How the data were processed

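Polyadenylated RNA was sequenced in 5 libraries of 2 groups, and the authors deposited unnormalized gene counts, 1 table per library. The submitters' processing notes name featureCounts 2.0.1, STAR 2.7.9a, cutadapt 3.4, DESeq2 1.28.1 and build GRCm39. Their settings, the annotation and the use of strand are not given in the sources used here.

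The test was that of edgeR 4.0.16 (R 4.3.3): filterByExpr (minimum count 10, minimum total 15), TMM factors and the two-sided quasi-likelihood F-test with Benjamini-Hochberg adjustment over all 15919 genes, threshold 0.05. The SE is the log2 change divided by the square root of F. CPM use TMM-scaled totals. Transcript lengths are those of principal transcripts in GENCODE M21 (GRCm38), found for 97.5% of tested genes. The procedure was run on simulated counts that had the same relative spread for every gene and no library standing apart. That run does not test how the results depend on replicate 5. Alternatives were RLE factors, no factors, no filter, DESeq2 1.42.0, voom of limma 3.58.1, each library left out and, added after seeing the data, DESeq2 without IGF-1 replicate 5. A fit with 1 control takes its spread from the IGF-1 libraries.

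The 10 members and the gene lists were chosen with earlier results of these data known. Besides the members, genes were named by a rule: from each list up to 3 called genes with the smallest adjusted p, or the 2 with the highest mean CPM, and the 3 genes nearest to Gfap and F3 in pattern, predicted and clone-named symbols left out. Genes named as called without replicate 5, genes given only per kilobase, Tfpi and the motifs were chosen after values or sequences were seen. A few genes chosen this way are not reported here.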

Additional observations from a re-analysis of the deposited data

How the results depend on the processing

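No paired analysis was possible because the 2 groups share no replicate number. The size and direction of the changes of F3 (log2 -0.39 to -0.47) and Nes (0.23 to 0.28) held in every alternative run, but their calls did not. With all 5 libraries edgeR called 109 genes higher and 54 lower. DESeq2 called 191 and 89, a fit with no filter on low counts 385 and 221, and DESeq2 without IGF-1 replicate 5 called 387 and 189. With each library left out in turn the counts ran from 0 to 855 higher and from 2 to 569 lower, the highest without IGF-1 replicate 5 and the lowest without either control. Among the 10 markers, 1 was higher (Nes) by DESeq2, with no filter and by DESeq2 without replicate 5, against 0, and leaving libraries out gave 0 to 1 higher and 0 to 1 lower. In the related lists, 1 gene was higher with total counts and with voom against 2, 8 were higher and 3 lower with no filter, 5 and 4 by DESeq2 without replicate 5, and 0 to 13 higher and 0 to 9 lower with a library left out. The cause of these differences was not tested.

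Changes near 0 turned sign. By voom Aldh1l1 was at -0.068 and Aqp4 at -0.0044. With a library left out, Atp1b2 ran from -0.069 (without control replicate 2) to 0.067 (without control replicate 1) and was 0.0074 without IGF-1 replicate 4. S100b ran from -0.13 without IGF-1 replicate 5 to 0.0044 without replicate 3. Aldh1l1 ran from -0.36 without replicate 4 to 0.53 without replicate 5 and was -0.02 without control replicate 2. Aqp4 ran from -0.17 without control replicate 1 to 0.63 without control replicate 2. Gja1, Aldh1l1 and Aqp4 had at most 62 counts in a library, and what part of their spread is counting error was not tested.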
